A study of Rattus norvegicus with 42 samples.

Results

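The comparison is of the extensor digitorum longus (EDL), a fast hindlimb muscle, on the first day of reloading (R1) with the same muscle at the end of disuse (D7). The members were chosen by their labels alone and are 6 of the 42 libraries of the series, 3 Wistar rats in each group, described over 9969 transcription start site (TSS) peaks, which are all peaks of the count table except 2 on the mitochondrial chromosome. The D7 rats (U1, U2 and U3) were hung by the tail with the hindlimbs off the ground for 7 days. The R1 rats (U18, U20 and U21) were treated in the same way for 7 days and then moved freely in the cage for 1 day. Each group is therefore a set of different animals, and every R1 animal also carries the preceding 7 days of unloading. The other EDL groups, of 3 rats each, were untreated controls (C), rats unloaded for 1 day (D1) or 3 days (D3), and rats reloaded for 3 days (R3) or 7 days (R7) after 7 days of unloading. The soleus, a slow postural muscle, came from the same 21 rats.

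Cap analysis of gene expression (CAGE) reads the capped 5′ end of an RNA, so a tag marks where a transcript began and a peak is a cluster of such starts. Hindlimb suspension takes the body weight off the leg muscles, and muscles that normally hold posture lose more mass than fast muscles such as the EDL. The EDL is built mainly from fast fibres, whose contractile force comes from fast myosin heavy chains encoded side by side in a cluster on chromosome 10 (Myh2, Myh1 and Myh4, of which Myh4 encodes the IIB heavy chain of the fastest fibres). Whole muscle also holds vessels, nerve, connective tissue and blood cells, and in such bulk samples a smaller number of cells of a type and less RNA per cell cannot be told apart.

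The EDL label was checked against the Myh4 region. The 35 peaks on the plus strand of chromosome 10 between positions 53778241 and 53800524 (Rnor_6.0) took between 0.0918% and 0.389% of the peak tags in the 21 EDL libraries, and between 7.29e-05% and 0.0200% in the 21 soleus libraries, so the muscles did not overlap. Other cell type markers were not used here, since the peaks are given without gene names.

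The start regions of the fast myosin genes are shown because these peaks are the only ones that could be tied to a fibre type. The 30 bases from 40 to 11 bases before the start of each gene in RefSeq, on the plus strand of the GRCr8 build, are given 5′ to 3′, with the motif TATAAA in capitals where it occurs.
Myh4 (chr10:52422108-52422137): aagtgaagctttggtgcctctgtcctgtcc
Myh1 (chr10:52384872-52384901): ttgatccTATAAAagtaccccttggaatga
Myh2 (chr10:52355699-52355728): tagctagccaTATAAAagagttccgaacga
The motif, searched on the transcribed strand with its first base between 40 and 15 bases before the start, lies at −33 in Myh1 and at −30 in Myh2 and is not in that window of Myh4. It is in 502 of 33469 promoters of the RefSeq table, or 1.5%. These are descriptions of letters, and the positions belong to another build than the peaks.

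Libraries held between 2635926 and 14549791 tags, of which 2229492 to 12267954 lay in the peaks, and the shallowest was R1 animal U20. The transcriptomes of the 2 groups were close: only 3 of the 6 libraries had their nearest neighbour, by correlation of log2 levels over peaks, in their own group, and D7 animal U3 and R1 animal U18 were nearest to each other (r = 0.960 over peaks within a pair of libraries). U3 and U18 were also the deepest, with 12267954 and 8758010 tags in peaks. D7 animal U1 (6679616 tags) was nearest to R1 animal U21 (6836138 tags). Whether depth shaped these pairs was not tested. The column headers place all R1 libraries of both muscles in sequencing lane 4, the D7 animals U1 and U2 in lane 3 and U3 in lane 6. Only 1 further library, from soleus at R3, shared lane 4, so the lane and the first day of reloading cannot be told apart within EDL. A lane term fitted over both muscles takes its lane 4 effect from that soleus library. EDL values from such a fit are therefore not a lane check of EDL.

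On the first day of reloading, 2 of 9341 tested peaks in EDL changed (0.0214%) in edgeR's quasi-likelihood test with Benjamini-Hochberg adjustment, where a call needs an adjusted p below 0.05 together with a change of more than 2.38-fold. There was 1 peak that rose (0.0107%) and 1 that fell (0.0107%). At an unadjusted p under 0.05 there were 574 peaks (6.14%), 254 higher (2.72%) and 320 lower (3.43%) at R1, and of these 217 differed by more than 2.38-fold, 52 upward and 165 downward. The R1 and D7 libraries did not overlap in 977 peaks (10.5%), 467 higher and 510 lower. Groups of 3 against 3 with no difference separate fully in a share of 0.1 of peaks. The count of 977 lies near that share. The 6.14% under an unadjusted p of 0.05 also lies near its threshold. The median absolute log2 fold change over all tested peaks was 0.25, below the median standard error of 0.38. DESeq2, the tool the study used, called 46 peaks on the same libraries (0.482%), 7 higher and 39 lower, and both edgeR calls were among them. In edgeR, leaving out U1, U18, U20 or U21 left 0 called peaks, leaving out U2 left 1, and leaving out U3 gave 3.

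The peak that rose, named H1 here, spans chr9:82570954-82571121 on the minus strand. It stood at 2.66, 4.03 and 2.19 CPM (tags scaled to a common library total, after TMM correction of each total) in D7 animals U1, U2 and U3, and at 17.3, 12.3 and 15.5 CPM in R1 animals U18, U20 and U21. Every reloaded muscle was thus above every unloaded one. The log2 fold change was 2.45 ± 0.37 (SE, n = 3 per group; edgeR adjusted p = 0.0188). The controls lay between, at 4.36 to 7.44 CPM. In the 3 animals of R3 the level was 10.4, 15.6 and 21.9 CPM, and at R7 it was 4.52 ± 0.79 CPM (mean ± SD, n = 3). The R3 libraries thus spanned the R1 range and the R7 libraries overlapped the controls. In soleus the peak was at 4.01 ± 2.48 CPM at D7 and 4.50 ± 1.21 CPM at R1, a log2 fold change of 0.14 ± 0.47 (edgeR adjusted p = 0.833).

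The peak that fell, L1, spans chr4:144192782-144193107 on the plus strand and was among the stronger ones. It stood at 285, 338 and 179 CPM in D7 animals U1, U2 and U3 and at 40.8, 58.9 and 62.9 CPM in R1 animals U18, U20 and U21. The groups did not overlap, and the log2 fold change was −2.30 ± 0.36 (SE, n = 3 per group; edgeR adjusted p = 0.0188). Control muscles held 68.5 to 97.2 CPM, and the level was already 301 ± 145 CPM at D1 and 230 ± 48.5 CPM at D3 (mean ± SD, n = 3). After R1 it remained at 63.3 ± 17.2 CPM at R3 and 65.8 ± 15.4 CPM at R7. Thus every unloaded EDL library lay above the controls, and the 3 R1 libraries lay below them. The soleus followed the opposite course, with 83.6 ± 20.3 CPM at D7 and 1040 ± 370 CPM at R1 (log2 fold change 3.63 ± 0.42, edgeR adjusted p = 1.08e-05).

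Up to 12 peaks in each direction were followed by a rule that required no overlap between the R1 and D7 libraries, at least 10 CPM on average in either group and a change of more than 2.38-fold; 18 higher and 53 lower peaks met it. Since only H1 and L1 passed the adjusted test in edgeR, the other 11 of each direction (H2 to H12 and L2 to L12, by unadjusted p) were not called there, with edgeR adjusted p between 0.151 and 0.489 upward and between 0.0504 and 0.194 downward. DESeq2 called 17 of the 24 followed peaks, H1 to H5 and all 12 lower ones. Being chosen on this contrast, their values are a description. The fit with a lane term takes the lane effect of R1 from a soleus library, so its values are not a lane check of EDL. With lane as a term over all 42 libraries no followed peak was called, and log2 fold changes moved in both directions, from 1.28 to 0.35 at H2, from 2.87 to 5.68 at H9, from −2.26 to −0.60 at L2, from −1.62 to −0.55 at L5 and, for the called peaks, from 2.45 to 2.08 at H1 and from −2.30 to −1.48 at L1.

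**Figure D1:**
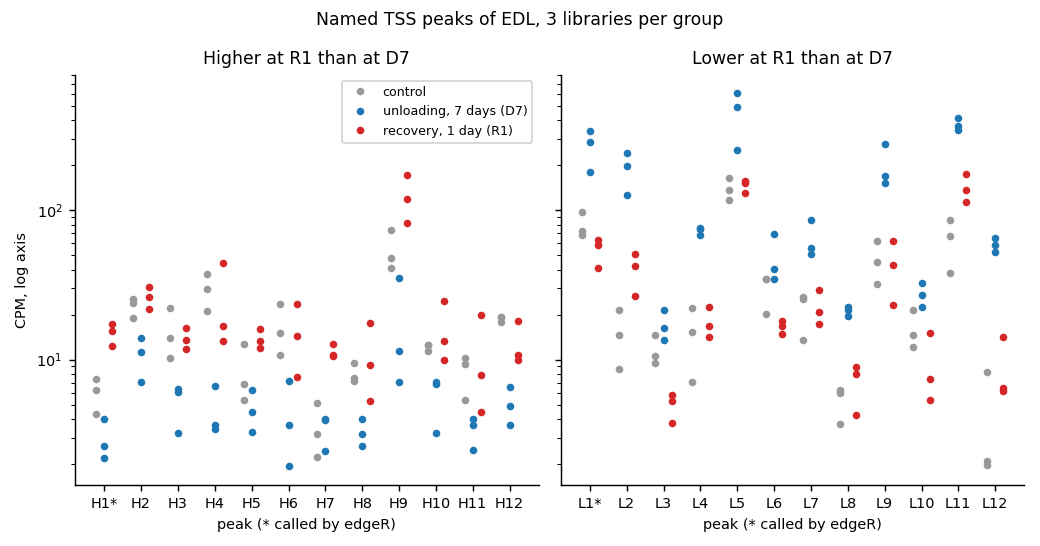
The levels of the 24 followed peaks in CPM (log axis) in the 3 control, 3 D7 and 3 R1 libraries of EDL, each point a library; stars mark the 2 peaks called by edgeR. In each peak the R1 points lie apart from the D7 points, as the rule required, and in L1 the R1 libraries lie between 40.8 and 62.9 CPM against 179 to 338 CPM at D7.

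Among the 12 followed lower peaks, which were taken by p and not by fold, the fold was largest at L12 (chr10:12997855-12998021, minus strand). It stood at 58.6, 64.8 and 52.8 CPM in D7 animals U1, U2 and U3 and at 6.21, 6.43 and 14.2 CPM in R1 animals U18, U20 and U21, a log2 difference of −2.68 ± 0.63 (SE). The controls were at 1.98 to 8.27 CPM, so 2 of the 3 reloaded muscles were within the control range. The peak L2 (chr1:261281619-261281935, plus strand) was at 199, 243 and 127 CPM at D7 and at 26.5, 50.9 and 42.3 CPM at R1, and was 8.63 to 21.5 CPM in controls. Here every reloaded muscle was still above every control. The level of L2 at D3 exceeded the control by 4.09 on the log2 scale (edgeR adjusted p = 0.000113).

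The strongest of the lower peaks were L5 (chr12:23840390-23841131, minus strand) and L11 (chr5:159967736-159968618, plus strand). L5 was at 608, 493 and 254 CPM in D7 animals U1, U2 and U3 and at 131, 153 and 157 CPM in the R1 animals, where the controls were at 117 to 163 CPM. L11 was at 345, 368 and 413 CPM at D7 and at 137, 114 and 174 CPM at R1, above the controls at 38.0 to 85.4 CPM. The R1 level thus lay within the control range for L5 and above it for L11. L4 (chr2:196402119-196402346, minus strand) was at 75.4, 76.5 and 68.7 CPM at D7 and at 14.3, 22.5 and 16.9 CPM at R1, L7 (chr2:198892407-198892663, plus strand) at 56.2, 86.5 and 51.0 CPM and at 17.3, 20.9 and 29.4 CPM. In L4 the R1 libraries overlapped the controls, at 7.13 to 22 CPM, and in L7 likewise, at 13.5 to 26.4 CPM.

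Like L1, L3 and L6 lay below all controls after reloading. L3 (chr1:153751743-153752060, minus strand) was at 16.2, 21.3 and 13.5 CPM at D7 and at 5.79, 3.75 and 5.30 CPM at R1, and the controls, at 9.51 to 14.7 CPM, were above the reloaded muscles. L6 (chr12:18884337-18884372, plus strand) was at 34.4, 40.3 and 69.4 CPM at D7 and at 14.8, 18.2 and 16.9 CPM at R1, with controls at 20.2 to 34.6 CPM. For L3 and L6 the R1 libraries therefore lay below the controls as well as below D7. L8, L9 and L10 had mean levels of 21.3, 200 and 27.3 CPM at D7 and of 7.07, 43.0 and 9.28 CPM at R1.

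Among the 12 followed higher peaks, the fold was largest at H9 (chr13:112005017-112005208, minus strand), with the widest spread. It stood at 11.4, 35.0 and 7.04 CPM in D7 animals U1, U2 and U3 and at 119, 82.0 and 171 CPM in R1 animals U18, U20 and U21, a log2 difference of 2.87 ± 0.86 (SE). With 1 library left out this difference lay between 2.46 (without U3) and 3.77 (without U2). In controls H9 was at 40.9 to 73.5 CPM, and at D1 it held 0, 0.67 and 0.87 CPM, 13 tags in 3 libraries. The lowest EDL level was thus on the first day of unloading. H4 (chr18:6782652-6782776, minus strand) was at 3.42, 3.62 and 6.62 CPM at D7 and at 44.2, 13.4 and 16.8 CPM at R1, with U18 far above the other R1 animals. H3 (chr4:61922823-61923041, plus strand) was at 6.33, 6.04 and 3.22 CPM at D7 and at 16.2, 11.8 and 13.6 CPM at R1, within the control range of 10.3 to 22.2 CPM.

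A pair of the higher peaks were neighbours. H5 (chr7:118130302-118130443, plus strand) and H7 (chr7:118113299-118113399, minus strand) lay 16903 bases apart on opposite strands. H5 was at 3.29, 4.43 and 6.26 CPM at D7 and at 12, 13.4 and 16.1 CPM at R1, H7 at 3.92, 4.03 and 2.43 CPM and at 10.6, 10.7 and 12.8 CPM. In both peaks the groups were apart and each group's libraries were close together. In controls H5 was at 5.37 to 12.7 CPM and H7 at 2.23 to 5.13 CPM, so the R1 level of H7 lay above the controls. H2, H6, H8, H10, H11 and H12 had mean levels of 3.28 to 10.8 CPM at D7 and of 10.7 to 26.2 CPM at R1.

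**Figure D2:**
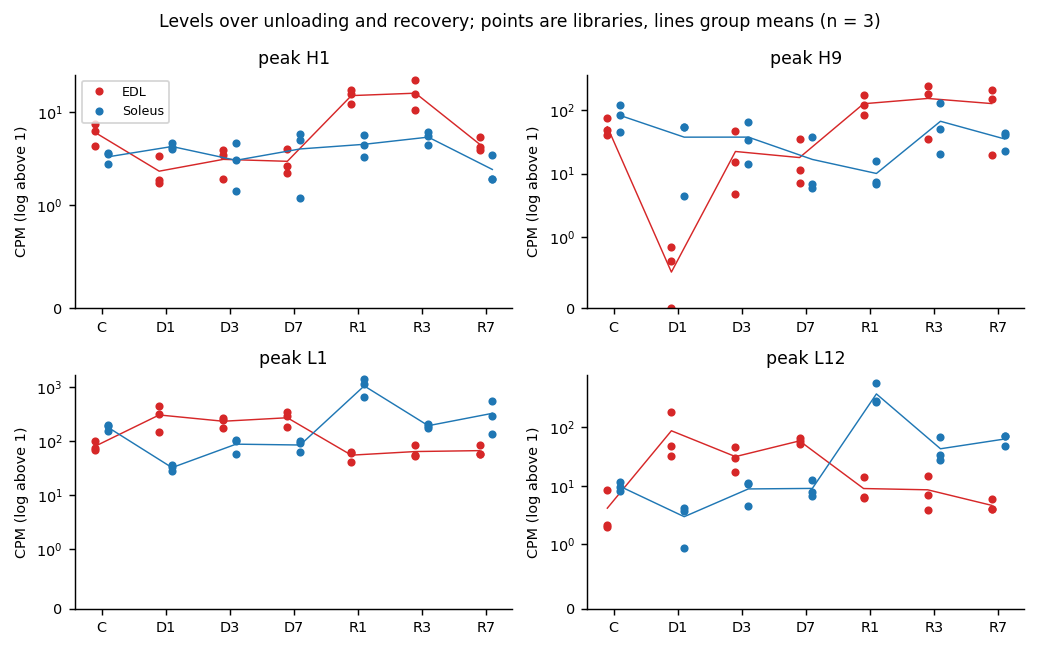
The levels of H1, H9, L1 and L12 in CPM (log axis above 1, linear below) over the 7 phases in EDL and soleus, where points are libraries and lines join group means (n = 3). In L1 the EDL falls from a mean of 267 CPM at D7 to 54.2 CPM at R1 while the soleus is at 1040 CPM at R1.

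The base with most tags was mostly shared between libraries. In 18 of the 24 peaks this base was the same in all 6 libraries, and in 22 it was shared by at least 5 of them. The share of a peak's tags at its leading base did not overlap between the groups in 7 of the 24 peaks, beside 8.29% of the 9124 tested peaks with a tag in every library. At H1 the leading base, position 82571059, took 66.7% to 81.0% of the tags at D7 and 70.4% to 73.9% at R1. At L1 the base at position 144192973 took 55.2% to 57.5% at D7 and 42.8% to 53.6% at R1, without overlap. The share at H5 was 46.2% to 57.3% at D7 and 59.4% to 80.0% at R1, and at L11 it was 42.4% to 49.3% and 36.4% to 39.4%. At L3, a lower peak, it was 28.3% to 34.2% at D7 and 34.8% to 45.9% at R1, where U20 held only 7 tags. Of the 7 peaks, the leading base took more of the tags at R1 in H5, H7, L3 and L7 and less in L1, L5 and L11. The higher peaks among the 7 thus gained share, and the lower ones went in both directions. At L7 the groups were barely apart, with a highest share of 71.17% at D7 and a lowest of 71.22% at R1.

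The question of whether neighbouring starts were used in other proportions was asked by testing each peak's share of its group, where peaks on 1 strand with gaps of at most 2000 bases were joined. None of 1870 peaks in 577 groups had a changed share in edgeR's diffSpliceDGE (0%; smallest adjusted p = 0.252), and 18 were under an unadjusted p of 0.05 (0.963%).

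The step from D7 to R1 was set beside the other steps of the EDL course. Against controls, 296 peaks were called at D1 (3.17%) and 100 at D7 (1.07%), and 265 between D1 and D3 (2.84%). From D3 to D7 there was 1 call (0.0107%), from R1 to R3 also 1 (0.0107%) and from R3 to R7 there were 2 (0.0214%). Peaks at an unadjusted p under 0.05 made up 17.9% from control to D1, 22.4% from D1 to D3, 8.05% from D3 to D7, 5.73% from R1 to R3 and 4.77% from R3 to R7, beside 6.14% from D7 to R1. Measured from D7 over longer reloading, 18 peaks were called at R3 (0.193%; 10.1% at an unadjusted p under 0.05) and 71 at R7 (0.76%; 10.3%). From control to D7 the unadjusted share was 11.8%. Against controls no peak was called at R1 in edgeR (0%), with 900 (9.63%) at an unadjusted p under 0.05. This comparison shares its R1 libraries with the main one, and the D7 comparison shares the D7 libraries. The counts show where calls were made and do not test 1 step against another.

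Lists were also taken from contrasts of earlier unloading with controls. The 6 R1 and D7 libraries are not in these contrasts, but they were in the same fit and so entered its filter, scaling and estimates of spread. At D3, 94 peaks were higher than in controls and 30 lower in edgeR, and at D1, 180 were higher and 116 lower. These lists were chosen with results of these data known, so they are described without a test. Of the 94 peaks higher at D3, 89 were lower at R1 than at D7 (94.7%, against 50.9% of all tested peaks), with a median log2 fold change of −1.08 against −0.01 over all tested peaks. In 54 the unadjusted p was under 0.05 and all of these were lower (57.4%, against 3.43% of all tested peaks), and 60 did not overlap in the lower direction (5.46% of all). With lane as a term over all 42 libraries, the median was −1.07, 80 of the 94 were lower and 20 were under an unadjusted p of 0.05. The lane effect of R1 in that fit came from a soleus library, so its values are not a lane check of EDL. Of the 12 higher followed peaks, 2 were among the 30 peaks lower at D3. Of the 12 lower followed peaks, 8 were members of the list of 94, which was drawn from 9341 tested peaks.

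The level of the list was read in each library as the median, over its peaks, of the log2 level relative to the mean of the 21 EDL libraries. It was 0.90, 0.79 and 0.58 in D7 animals U1, U2 and U3, and −0.41, −0.32 and −0.15 in R1 animals U18, U20 and U21. No reloaded muscle reached an unloaded one. The controls, which helped choose the list, were at −0.86, −1.16 and −1.02, below all R1 libraries. The median log2 change from controls was 1.72 at D7 and 0.80 at R1.

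The peaks raised at D1 were likewise lower at R1, and 45 of the 180 were also among the 94. Of them 155 were lower at R1 (86.1%, against 50.9% of all tested peaks), the median log2 fold change was −1.10, and 82 were under an unadjusted p of 0.05 (45.6%, against 6.14% of all), 80 of them lower (3.43% of all). The library medians were 0.75, 0.74 and 0.30 at D7 and −0.69, −0.24 and −0.22 at R1. The lists of peaks lowered by early unloading had smaller medians. Of the 116 lowered at D1, 91 were higher at R1 (49.1% of all tested peaks were) with a median of 0.42, and 30 of the 32 under an unadjusted p of 0.05 were higher (2.72% of all tested peaks). Of the 30 lowered at D3, 18 were higher with a median of 0.45. Their median became 1.78 with 28 higher when lane was a term in a fit of all 42 libraries. That fit is not a lane check of EDL, since it takes the lane effect of R1 from a soleus library. The library medians of the 30 overlapped, at −0.26, 0.06 and −0.67 for D7 and −0.26, 0.11 and 0.03 for R1.

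**Figure D3:**
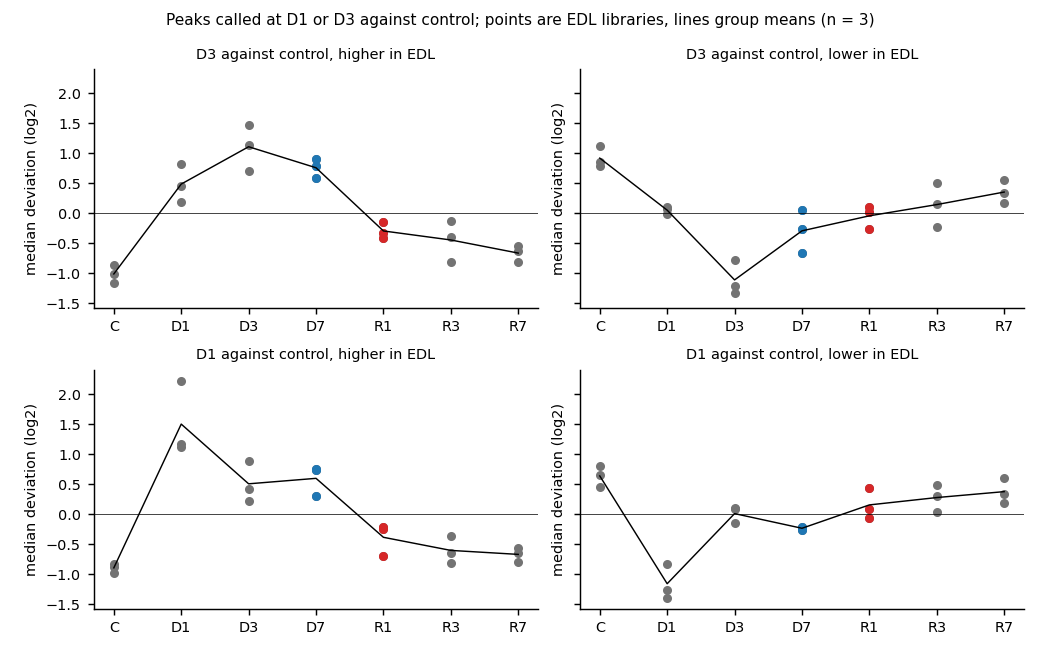
The median log2 deviation from the mean of the 21 EDL libraries over peaks called higher (left) or lower (right) than controls at D3 (94 and 30 peaks) and at D1 (180 and 116), where points are libraries and lines join group means (n = 3). In the upper left panel the D7 libraries lie between 0.58 and 0.90 and the R1 libraries between −0.41 and −0.15.

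The same day of reloading was compared with that of the soleus. There 2286 of 9844 peaks were called in edgeR (23.2%), 1531 higher and 755 lower, and the groups did not overlap in 5400 (54.9%). Of the 2286 called peaks, 1840 were tested in EDL, where their median absolute log2 fold change was 0.30 against 1.83 in soleus and 843 had the same sign (45.8%). In the 1151 peaks that rose in soleus and were tested in EDL, 109 were under an unadjusted p of 0.05 (9.47%, against 6.14% of all tested peaks), of which 90 were lower and 19 higher in EDL. In the 689 that fell in soleus, 51 were under it (7.40%), 32 lower and 19 higher. Each rat gave both muscles, so the libraries share animals.

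The test of the difference itself, EDL change minus soleus change over all 42 libraries, called 1497 of 9944 peaks in edgeR (15.1%). The EDL change was below the soleus change in 1030 and above it in 467. The clearest were M4 (chr6:135112787-135113023, minus strand), M5 (chr13:6347408-6347581, minus strand) and M6 (chr6:135050360-135050425, minus strand). In EDL, M4 was at 18.5, 15.3 and 17.6 CPM in D7 animals U1, U2 and U3 and at 16.1, 11.2 and 17.5 CPM in R1 animals U18, U20 and U21. In soleus it was at 16.3, 17.2 and 19.9 CPM at D7 and at 2987, 732 and 685 CPM at R1, with U18 far above the others. The difference in log2 change was −6.49 ± 0.56 (SE; edgeR adjusted p = 2.66e-09). The EDL groups overlapped in M4, whereas those of soleus did not. M4, M5 and M6 had nearly the same mean in soleus at R1, 1468, 1449 and 1461 CPM. A read could map to up to 20 loci, so they may share tags and need not be separate signals, which was not tested.

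In the other direction the smallest p values were at M1 (chr5:154598687-154598876, plus strand), M2 (chr2:212849577-212849828, plus strand) and M3 (chr20:18547140-18547443, plus strand). M3 was at 203, 162 and 142 CPM in D7 animals U1, U2 and U3 and at 386, 270 and 306 CPM in R1 animals U18, U20 and U21 of EDL, with controls at 313 to 386 CPM. In soleus it was at 228 ± 31.9 CPM at D7 and 110 ± 20.6 CPM at R1. The difference in log2 change was 2.03 ± 0.32 (SE; edgeR adjusted p = 4.65e-05), and the EDL change alone, 0.93 ± 0.26, was not called (edgeR adjusted p = 0.292).

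Among the followed peaks the muscle difference was called in 8 of 12 higher and 9 of 12 lower ones, beside 15.1% of all peaks. The EDL change by which all 24 were chosen is a term of this difference, so these counts are a description. Of the 12 lower peaks, 5 were called in soleus on the same day, L1, L5, L7, L11 and L12, and all 5 rose there (15.6% of all peaks tested in soleus did). Of the 12 higher peaks, 3 were called in soleus, where H10 rose and H3 and H5 fell. Of all peaks tested in soleus 23.2% were called, 15.6% higher and 7.67% lower. L12 was at 6.63, 12.6 and 7.72 CPM in soleus of D7 animals U1, U2 and U3 and at 577, 269 and 281 CPM in soleus of R1 animals U18, U20 and U21, the reverse of its course in EDL. The difference in log2 change was −7.99 (edgeR adjusted p = 1.82e-07). L5 was at 599 to 772 CPM in soleus at D7 and at 8801 to 26510 CPM at R1.

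**Figure D4:**
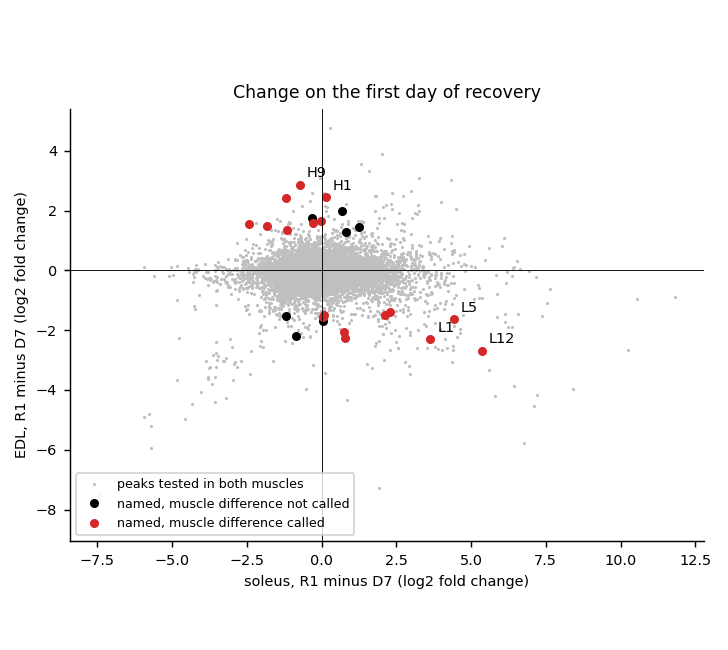
The R1 minus D7 log2 fold change of each peak in soleus (horizontal) and EDL (vertical), on equal scales; grey dots are peaks tested in both muscles, and the 24 followed peaks are red where the muscle difference was called (17) and black otherwise. L1, L5 and L12 lie at the lower right, with 3.63, 4.42 and 5.36 in soleus and −2.30, −1.62 and −2.68 in EDL.

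The early unloading lists were also read in soleus. The 94 peaks raised at D3 in EDL had a median log2 fold change of 1.02 at R1 against D7 in soleus, where 40 were called higher and 3 lower (15.6% and 7.67% of all tested peaks were called higher and lower), and the muscle difference was called in 54 of them (57.4%, against 15.1% of all tested peaks). For the 180 raised at D1 the soleus median was 1.67, with 88 called higher and 11 lower, and the muscle difference was called in 96 of the 180, against the same shares of all peaks. In EDL the medians of both lists were −1.08 and −1.10. The lowered lists had medians below 0 in soleus. Of the 30 lowered at D3, 23 were tested there, with a median of −1.18, 1 called higher and 8 lower, and the muscle difference was called in 10. Of the 116 lowered at D1, 114 were tested, with a median of −0.58, 5 called higher and 21 lower, and the muscle difference was called in 39.

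Fast myosin starts were read over windows of neighbouring peaks. The 35 peaks of the Myh4 window summed to 1283, 1728 and 1130 CPM in D7 animals U1, U2 and U3 and to 1481, 1689 and 900 CPM in R1 animals U18, U20 and U21. The ranges of the groups overlapped (mean log2 difference −0.05; two-sided exact permutation p = 0.9, a test that cannot go below 0.1 with 3 against 3). Controls summed to 2975 to 3437 CPM, above all 6 libraries. None of the 35 peaks was under an unadjusted p of 0.05 or called by edgeR, 17 being higher and 18 lower at R1, and in 1 of them the R1 and D7 libraries did not overlap (10.5% of all tested peaks did not). The 2 peaks at the start of the window (positions 53778241 to 53778413 and 53778436 to 53778683) had means of 8.64 and 8.78 CPM at D7 and 9.91 and 10.2 CPM at R1, a small part of the summed level of the window. The R1 means were carried by U18, at 21.1 and 18.1 CPM, while U20 was at 5.36 and 7.50 CPM and U21 at 3.30 and 4.87 CPM.

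The peak arrays next upstream on the strand were read in the same way, at the places where the GRCr8 gene order has Myh1 and then Myh2. In the next upstream array 33 peaks summed to 2024 ± 620 CPM at D7 and 1866 ± 508 CPM at R1 (mean ± SD, n = 3), with 16 of the peaks higher and 17 lower at R1. In the second upstream array 29 peaks summed to 956 ± 242 and 793 ± 231 CPM, with 3 of the peaks higher and 26 lower at R1 (50.9% of all tested peaks were lower) and a median log2 fold change of −0.34. The library sums of this array overlapped, at 702 to 1184 CPM at D7 and 546 to 1005 CPM at R1. The two-sided exact permutation p of the sums was 0.6 here and 0.7 in the next upstream array, and it cannot go below 0.1. No peak of either array was under an unadjusted p of 0.05. The gene names of both arrays were inferred from gene order in another build.

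**Figure D5:**
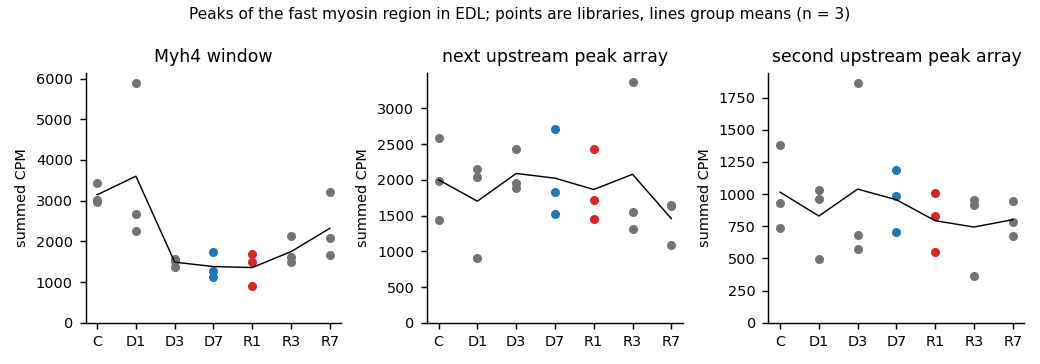
Summed CPM of the peaks of the Myh4 window and of the arrays next and second upstream on chromosome 10, in EDL over the 7 phases; points are libraries, with D7 in blue and R1 in red, and lines join group means (n = 3). In the Myh4 panel the 6 D7 and R1 libraries lie between 900 and 1728 CPM, with overlapping ranges, below the controls.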

How the data were processed

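The authors made nAnT-iCAGE libraries from total RNA of each muscle, sequenced them as single reads, trimmed and mapped them to Rnor_6.0 and counted tags per start position with PromoterPipeline. The methods name STAR, and the submitters' processing notes list BWA, HISAT2 and Trimmomatic 0.38; which aligner made the files is not settled here. A read could map to up to 20 loci, so tags of near-identical copies, such as the myosin genes, may be shared. The authors deposited raw counts (rescued tags) over 9971 tag clusters for 42 libraries and raw counts per start position for each library; 42 normalized columns of the table were not used. The methods describe clustering over all samples of a muscle, and the table holds 1 set of clusters for both muscles.

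The quasi-likelihood test of edgeR 4.0.16, run in R 4.3.3 with its filterByExpr filter and TMM scaling, was applied to the counts, with the 21 libraries of a muscle in 1 fit, or all 42 for the muscle difference, and Benjamini-Hochberg adjustment over all peaks tested. The filter left 9341 of 9969 peaks in EDL. CPM values are on TMM-scaled totals, and the SE is the log2 fold change divided by the root of the F statistic. The study's limits (adjusted p under 0.05, change over 2.38-fold) were kept. Changes of shares in strand groups were tested with diffSpliceDGE. Tests were tried on simulated data first. DESeq2 1.42.0, other scalings, filters, lanes and left-out libraries were alternatives.

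The compared groups are different animals; the animal number ties only the muscles, since both came from the same rat. Deviations of soleus and EDL from their group means correlated with r over 0.1 in 15 of 21 animals (median 0.25), but in only 3 of the 6 R1 and D7 animals (median 0.10, lowest −0.31). Depth (2635926 to 14549791 tags) sets the counting error, which the tests take in beside the spread between animals. The scaling also differed with depth: the TMM factor was 1.34 and 1.36 in the deepest libraries, U3 and U18, and 0.81 and 0.84 in the shallowest, U2 and U20. With EDL libraries thinned to the shallowest, H1 had an adjusted p of 0.140 in edgeR.

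The members were taken by their labels, and this choice and that of the lists were made with earlier results of these data known. Followed peaks had R1 and D7 libraries that did not overlap, a mean of at least 10 CPM in R1 or D7 and a change over 2.38-fold, first the called ones, then by unadjusted p up to 12 a direction; for the muscle difference, the 3 called peaks of smallest p in each direction. No gene annotation in the build of the peaks entered the work, so planned gene lists and cell type markers were left out and peaks are given by position. The Myh4 window was read from a genome view of the study and has approximate ends. Sequences and gene order are from RefSeq (GRCr8), where all 3 myosin genes matched by symbol.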

Additional observations from a re-analysis of the deposited data

Results flagged for a closer look

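The R1 against D7 change differed between EDL and soleus, by the test of the difference itself in edgeR, in 1497 of 9944 peaks (15.1%). Among the higher followed peaks the EDL minus soleus difference on the log2 scale was 2.36 at H1, 3.35 at H3, 3.72 at H4, 4.02 at H5, 1.71 at H8, 3.65 at H9, 1.91 at H11 and 2.55 at H12. Among the lower ones it was −5.88 at L1, −2.99 at L2, −2.77 at L4, −5.98 at L5, −1.55 at L6, −3.57 at L7, −1.54 at L10, −3.66 at L11 and −7.99 at L12. The difference was not called at H2, H6, H7, H10, L3, L8 and L9. The followed peaks were chosen by their EDL change, which is a term of this difference, so their values are a description. All R1 libraries of both muscles share a lane, so the lane enters both changes. A lane effect equal in both muscles would drop out of their difference, except for D7 animal U3, whose EDL and soleus libraries were in different lanes. Whether it was equal was not tested. With lane as a term, an alternative chosen after seeing the data, 1117 of 9944 peaks were called.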

How the results depend on the processing

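The number of peaks called in EDL was small under every setting run. From 2 of 9341 tested peaks it moved to 46 with DESeq2 (0.482%), 17 of them followed peaks out of 24. It was 1 of 9139 with only the 6 libraries in the fit (none of the followed peaks) and 5 of 9341 without TMM factors (5 followed). With at least 10 CPM on average it was 7 of 5287 (7 followed), and with libraries thinned to the shallowest 1 of 8235 (1 followed). With lane as a term over all 42 libraries it was 0 of 9944 (0 followed). With the lane term the median SE rose from 0.38 to 0.79, by the construction of that fit, and 331 peaks were under an unadjusted p of 0.05, against 686 without it. The lane effect of R1 in that fit came from a soleus library of another phase, so values with the lane term are not a lane check of EDL. The 24 followed peaks kept their sign. Some stayed near their size, such as H10 (1.44 to 1.57), L10 (−1.49 to −1.40) and L12 (−2.68 to −2.56). Beside the values given for H1, H2, H9, L1, L2 and L5, the log2 fold change moved from 2.42 to 4.70 at H4, from 1.76 to 3.06 at H7 and from 1.34 to 2.33 at H12. It shrank from −1.71 to −0.68 at L3 and from −1.51 to −0.96 at L7. It grew from −2.06 to −3.44 at L4, from −1.55 to −2.20 at L6, from −1.53 to −2.24 at L8 and from −2.20 to −3.17 at L9. Leaving out 1 library gave 0 to 3 calls among all peaks and 0 to 3 among the followed ones, 0 without U1, U18, U20 or U21. Of 9402 to 9477 tested peaks, 434 to 795 were then under an unadjusted p of 0.05. The muscle difference gave 1018 to 1720 calls with 1 library left out, 299 to 569 with the EDL change above that of soleus and 704 to 1155 with it below. With the animal as a replicate block it gave 1535 calls, of which 1327 were shared with the fit without the block. Joining peaks within 10000 bases gave 1 changed share, and leaving out 1 library gave 0 to 0. The median of the 94 peaks higher at D3 lay between −1.16 and −0.98 with 1 library left out, and that of the 30 lower ones between 0.32 and 0.57, but 1.78 with the lane term; these lists were chosen after seeing the data. No followed peak changed sign under any setting. The rule that chose them, no overlap between R1 and D7 libraries, largely fixed this in advance where a library was left out. Alternatives on gene lists were not run, since no list was used. The cause of these shifts was not tested. Peaks of a few tags are limited by depth.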

Other observations

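A peak of 18 bases on the minus strand at chr15:88692545-88692562 followed the animal in both muscles. In 9 of the 21 rats it was under 2 CPM in EDL and soleus alike (at most 1.49), and in the others it was at 30.6 to 94.6 CPM. All 3 R1 rats were among the low ones, at 0.59 CPM or less in the 6 libraries, and all 3 D7 rats among the high ones, at 40.3 to 94.4 CPM, and 6 low rats belonged to other groups. Its log2 fold change in EDL was −7.49 ± 2.0 (SE, n = 3 per group), which was not called (edgeR adjusted p = 0.244). It was singled out after its values were seen.

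Of 34 peaks lower at R1 by more than 2.5 on the log2 scale in both muscles, also singled out after their values were seen, 11 lay on both strands at chr1:180645685-180912962 and 4 on the minus strand at chr13:33502636-33508782. Over the 11 peaks the median was 6.28, 17.1 and 2.31 CPM in EDL of D7 animals U1, U2 and U3, 1.11 CPM in EDL of R1 animal U18, and 0 tags were counted in EDL of R1 animals U20 and U21. In soleus of U1, U2 and U3 it was 10.1, 2.02 and 12.7 CPM, and in soleus of R1 animal U18 1.97 CPM. In 16 of the 42 libraries of the series these peaks held 5 tags or fewer in all, and the highest median, 29.7 CPM, was in EDL of control animal U7. In EDL of the 3 controls the median was 1.21, 29.7 and 10.9 CPM, which covers the whole range of the D7 libraries.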
